A study of Mus musculus with 8 samples.

Results

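Ckm, Mb, Car3 and Pgm5 are 4 genes of muscle energy supply and attachment, taken by name from a table of 5457 genes, and all 4 were measured in every library. RNA came from tdTomato-positive cells. They had been isolated by sorting from digested hind limb muscle, the donors being adult C57BL/6 mice, and plated on Matrigel. The mice carried 1 allele of a tamoxifen-inducible Cre recombinase, Pax7-CreERT2/+ or Tw2-CreERT2/+, together with R26-tdTO+, and all of them, in every group, had received tamoxifen 3 times, 10 days before harvest. A cell was thus labelled because Pax7 or Twist2 was active when tamoxifen was given, whatever it expressed later. The 4 groups of 2 libraries were Pax7_GM and Tw2_GM (growth medium, Ham's F10 with 20% fetal bovine serum) and Pax7_48 and Tw2_48. The number 48 is given in hours in the Tw2 titles and without a unit in the Pax7 titles, and the labels do not say that the 48 cultures were in the differentiation medium (2% horse serum and bFGF) that the growth protocol describes. One label calls the RNA that of freshly sorted cells and the others that of cultured cells, and the labels give neither the sex of the mice nor whether the libraries of a group came from separate animals.

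A contracting muscle cell keeps its ATP level by several short routes. Ckm, the muscle form of creatine kinase, moves phosphate between phosphocreatine and ADP, and Mb encodes myoglobin, which binds oxygen in the cytoplasm. Car3 encodes carbonic anhydrase III, a cytosolic enzyme that is abundant in slow muscle fibres and also in fat and liver. Pgm5, also called aciculin, belongs to the phosphoglucomutase family but is known as a structural protein without that activity, found where the actin cytoskeleton meets the membrane together with dystrophin and utrophin. Genes of this kind are switched on when myoblasts leave the cell cycle and fuse.

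The promoters of Ckm, Mb and Pgm5 are shown because Ckm and Pgm5 had like levels across the cultures while those of Mb differed from them in the Pax7 cells. Each window runs from 250 bases before to 50 bases from the transcription start (RefSeq, GRCm38.p6), and capitals mark every E-box, CANNTG, the motif bound by MyoD, myogenin and related factors, which reads the same on both strands. The first is Ckm at chr7:19410844-19411143 on the plus strand. The next is the start of Mb in the middle of its gene, chr15:77022738-77023037, and the last is Pgm5, chr19:24861793-24862092, both on the minus strand.
Ckm: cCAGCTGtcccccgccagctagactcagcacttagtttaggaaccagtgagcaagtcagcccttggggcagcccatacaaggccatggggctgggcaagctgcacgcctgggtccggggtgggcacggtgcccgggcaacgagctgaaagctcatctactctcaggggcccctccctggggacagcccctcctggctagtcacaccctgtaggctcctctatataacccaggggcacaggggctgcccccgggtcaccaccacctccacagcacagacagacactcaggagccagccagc
Mb: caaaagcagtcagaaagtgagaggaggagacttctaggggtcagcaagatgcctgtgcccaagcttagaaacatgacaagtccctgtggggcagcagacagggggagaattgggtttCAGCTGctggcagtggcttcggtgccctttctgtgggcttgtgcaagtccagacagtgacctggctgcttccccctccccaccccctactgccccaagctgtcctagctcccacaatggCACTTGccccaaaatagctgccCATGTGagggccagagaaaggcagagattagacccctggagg
Pgm5: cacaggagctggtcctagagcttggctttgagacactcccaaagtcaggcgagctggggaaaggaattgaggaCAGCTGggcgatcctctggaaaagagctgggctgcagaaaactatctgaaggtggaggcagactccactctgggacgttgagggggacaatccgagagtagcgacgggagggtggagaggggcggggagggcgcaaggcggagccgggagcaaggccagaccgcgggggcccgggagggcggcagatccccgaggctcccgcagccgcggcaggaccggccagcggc

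The Ckm window held 1 E-box, the Mb window 3 and the Pgm5 window 1, and 72.3% of the 32851 promoter windows in the RefSeq table held at least 1. The word CAGCTG, singled out after the sequences were seen, stood in each of the 3 windows printed, its first base 249 bases before the start in Ckm, 133 in Mb and 177 in Pgm5, and in 16.3% of all windows. The RefSeq table holds 2 further windows of Mb, and the one at the upstream start, chr15:77050619-77050918, has 2 E-boxes and lacks that word. A TATA box, searched as TATANAA on both strands, was found in Ckm alone, 31 bases before the start, and in 11.3% of all windows. Neither a MEF2 site (3.19% of all windows) nor a CArG box (1.63%) was found in any of the 3. A match is a run of letters and not a measured binding site, and Car3 is not printed.

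In the GENCODE M21 annotation of the same build, Ckm spans chromosome 7 from 19404776 to 19422841, Mb chromosome 15 from 77015487 to 77050670, Car3 chromosome 3 from 14863512 to 14872523, and Pgm5 chromosome 19 from 24683016 to 24861855. The Ckm window printed above, like that of Mb, lies inside the span of its gene and not at its upstream end. Their longest coding transcripts, in the order Ckm, Mb, Car3 and Pgm5, have 8, 3, 7 and 11 exons. Whether the transcript used for the length and GC content of Ckm starts at the printed window was not examined. On the opposite strand A930016O22Rik lies within Ckm, Apol6 overlaps the upstream start of Mb, and Gm49540 overlaps the downstream end of Mb. The pseudogenes Gm17800, on the same strand, and AC123930.1, on the opposite strand, lie within Pgm5. None of these is among the genes analysed here. The strand handling of the counting is not given in the sources used here. Reads from such neighbours therefore cannot be told apart from those of Ckm, Mb and Pgm5.

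The values are CPM, reads scaled to library size by the authors and deposited as group means, from which the reads of each library were recovered for 5452 of the 5457 genes. Implied library sizes ran from 5.18e+06 to 1.37e+07 reads, and 3 reads, the limit that a count of 0 allows, came to between 0.218 and 0.579 CPM. Within a group the library with more reads is named the deeper and the other the shallower, because a mean does not carry replicate numbers. They differed by a median of 0.33 on the log2 scale in Pax7_GM and by 0.11 to 0.12 in the other groups. Every gene of the table reaches a deposited absolute log2 fold change of 1 against Tw2_GM in 1 or more groups, and the shares of called genes given below refer to this selection. Pax7 itself was at 117 and 112 CPM in Pax7_GM and at 113 and 109 CPM in Tw2_GM, while Twist2 is not analysed here. Myog, a marker of myoblast differentiation, was found in every library, from 89.1 CPM in Tw2_GM to 3859 CPM in Tw2_48.

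Ckm was low in growth medium and high in the 48 cultures of both lineages. It stood at 13.5 and 11.96 CPM in the Pax7_GM libraries (100 and 62 reads) and at 5.59 and 5.75 CPM in Tw2_GM (68 and 65 reads). In the 48 cultures it reached 419 and 591 CPM in Pax7_48 and 1137 and 1141 CPM in Tw2_48. No library of 1 group fell within the range of another (87.8% of all genes were apart in this way between the GM groups, 89.6% between the 48 groups, 85% within the Pax7 lineage and 95% within the Tw2 lineage), and the order of the groups was Tw2_48, Pax7_48, Pax7_GM and Tw2_GM. The 2 Pax7_48 libraries were 1.41-fold apart, a gap as wide as or wider than that of 98.0% of genes in that group. The Tw2_48 libraries were 1.00-fold apart.

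Mb followed another course, with a high level in the Pax7 cells already in growth medium. Its levels in CPM were 233 and 166 in Pax7_GM, 301 and 256 in Pax7_48, 196 and 211 in Tw2_48, and in Tw2_GM 6.08 and 4.25 (74 and 48 reads). Tw2_GM was thus the single low group, and the Tw2_48 libraries lay between those of Pax7_GM.

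Car3 was the only member that was highest in growth medium. In CPM, the Pax7_GM libraries stood at 238 and 293, those of Pax7_48 at 130 and 110, those of Tw2_48 at 117 and 114 and those of Tw2_GM at 43.6 and 35.4. The Pax7_48 libraries lay on either side of the Tw2_48 libraries, and the remaining groups were apart from these and from each other.

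Pgm5 had the lowest level of the 4 in growth medium and resembled Ckm across the groups. In Tw2_GM it was at 1.97 and 1.06 CPM, from 24 and 12 reads, with exact Poisson 95% intervals of 1.26 to 2.93 and 0.549 to 1.86 CPM that cover counting error only. These 2 libraries were 1.86-fold apart, a gap as wide as or wider than that of 98.1% of genes in that group. Pax7_GM was at 10.4 and 8.68 CPM (77 and 45 reads), Pax7_48 at 384 and 389 CPM, and Tw2_48 at 532 and 498 CPM. All 4 groups were separate, in the same order as for Ckm.

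**Figure D1:**
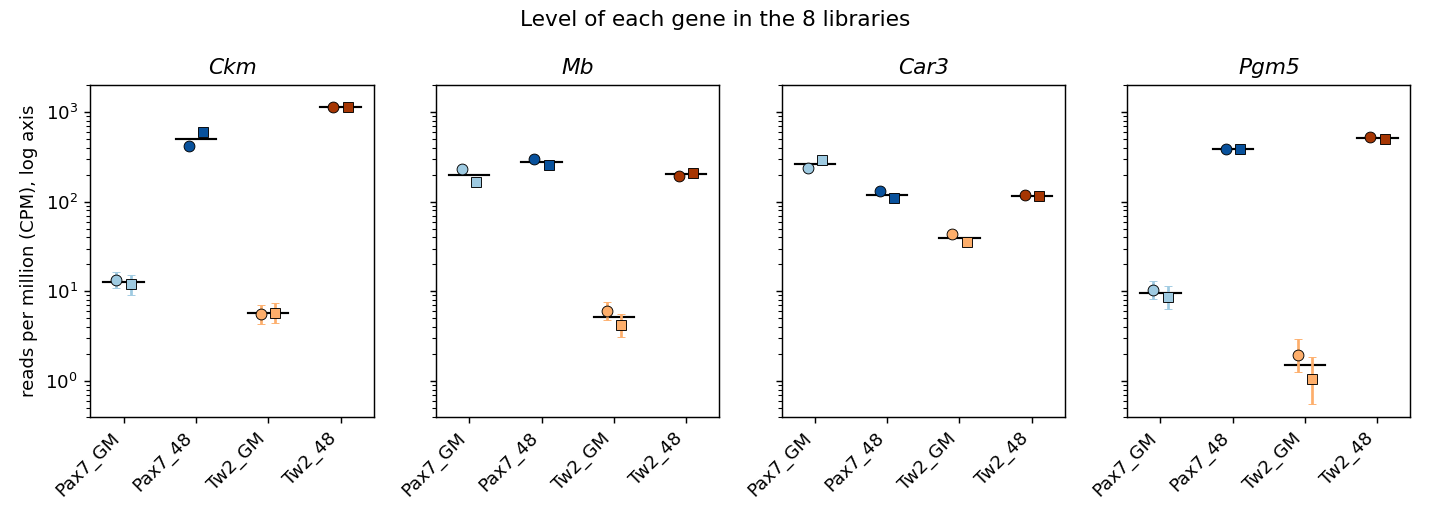
Level of each gene in CPM (log axis) in the 8 libraries, with circles for the deeper and squares for the shallower library of a group, exact Poisson 95% intervals as error bars and a bar at the group mean. Ckm and Pgm5 are low in both GM groups, Mb is low in Tw2_GM alone, and Car3 is highest in Pax7_GM.

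In growth medium all 4 genes were lower in Tw2 than in Pax7 cells. Differences were tested with limma on log2(CPM + 1), with 1 spread per gene pooled over the 8 libraries. That spread was drawn toward the one typical of all genes (4 residual and 4.02 prior degrees of freedom). Differences were called at an adjusted p (Benjamini-Hochberg over the 5452 genes) under 0.05. In this comparison 26% of all genes were called lower and 48.7% higher. The mean CPM of Mb was 38.6-fold higher in Pax7_GM, and its log2 difference, Tw2 minus Pax7, was −5.02 ± 0.21 (limma adjusted p = 4.25e-06, the error here and below being the SE from that spread, with 2 libraries a group), the second lowest of 5452 genes. Car3 was 6.72-fold higher in Pax7_GM (log2 difference −2.72 ± 0.17, limma adjusted p = 1.23e-05) and Pgm5 6.30-fold (−2.09 ± 0.19, limma adjusted p = 7.25e-05). The pseudocount of 1 CPM makes the log2 value of Pgm5 smaller than its change in CPM, and with 5 CPM it was −1.16. Ckm was 2.25-fold higher in Pax7_GM, with a log2 difference of −1.04 ± 0.17 (limma adjusted p = 0.000842).

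The Ckm difference in growth medium was the only member call of this comparison that depended on the processing. The median log2 difference of the 1358 genes lowest in transcript GC content was 1.74 in this comparison and that of the 1358 highest −0.41. With a trend in transcript GC content and length removed from each library, Ckm was at −0.20 (limma adjusted p = 0.266), Mb at −3.78, Car3 at −2.66 and Pgm5 at −1.53. The Ckm transcript has 54.0% GC, more than 72.9% of the genes, and that of Car3 46.6%, more than 37.4%. Size factors over the listed genes moved the median of all genes in this comparison from 0.34 to −0.50, and the members then ranged from −1.78 (Ckm) to −5.76 (Mb). In RNA from whole cultures, fewer cells that express a gene and less of its RNA in each cell cannot be told apart. P-values here measure only the spread between these libraries, which may be technical.

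In the 48 cultures Ckm was the member that differed between the lineages, now higher in Tw2 cells. Its mean was 2.26-fold that of Pax7_48, with a log2 difference of 1.19 ± 0.17 (limma adjusted p = 0.00122), against 43.3% of all genes called higher and 22.1% called lower. It was called in this direction under every alternative run, between 0.53 (size factors) and 1.73 (trend removed). Car3 was level, with a log2 difference of −0.04 and a 95% interval from −0.43 to 0.34 (limma adjusted p = 0.827). With size factors Car3 was lower in Tw2_48, at −0.70 (limma adjusted p = 0.00408).

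For Mb and Pgm5 the outcome at 48 rested on which libraries set the spread and on the scaling. Mb was at −0.45 ± 0.21 (95% interval −0.94 to 0.03, limma adjusted p = 0.0894) and Pgm5 at 0.41 ± 0.19 (−0.02 to 0.84, limma adjusted p = 0.083). The libraries of the 2 groups did not overlap for either gene, as for 89.6% of all genes. When only the 4 libraries of the 48 cultures entered the fit, Mb was called lower (SE 0.12, limma adjusted p = 0.00246) and Pgm5 higher (SE 0.11, limma adjusted p = 0.00318) in Tw2 cells. Without the deeper or without the shallower Pax7_GM library, whose own values are not part of this comparison, Mb was called at an adjusted p of 0.0143 and Pgm5 at 0.0266 (limma). Neither the call nor the direction was stable to scaling. Mb was called lower at −1.11 with size factors and −0.58 with quantile normalization, but was at 0.37, not called, with the trend removed. Pgm5 was called higher at 0.77 with the trend removed and was at −0.25 with size factors.

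**Figure D2:**
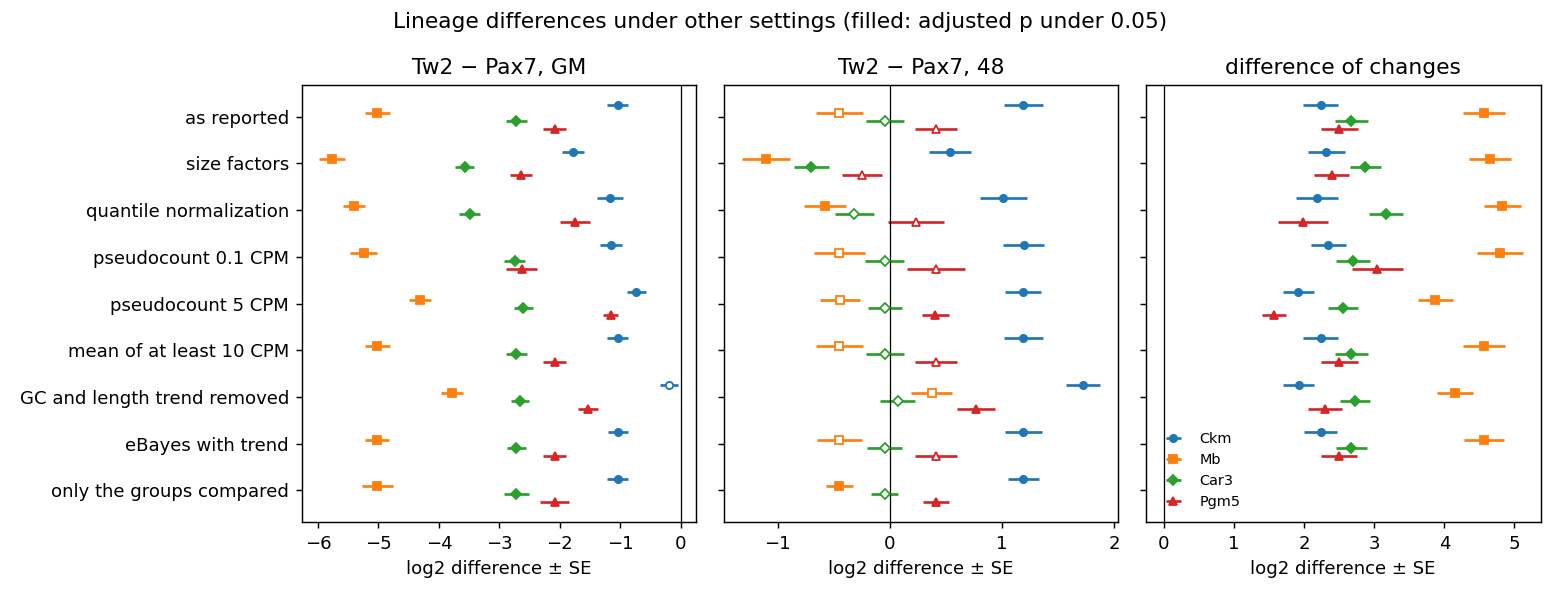
Lineage differences of the 4 genes (log2, with standard errors as bars) in GM, at 48 and as the difference of changes, as reported and under other settings, filled where adjusted p is under 0.05. In GM all values are below 0, with Ckm at −0.20 and open once the GC and length trend is removed, while at 48 Mb, Car3 and Pgm5 fall on both sides of 0.

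Between growth medium and the 48 cultures, Ckm and Pgm5 rose in both lineages, Car3 moved in opposite directions and Mb rose in the Tw2 lineage. In Pax7 cells, where 38.8% of all genes were called higher and 40.5% lower, the mean of Pgm5 was 40.5-fold and that of Ckm 39.6-fold higher in Pax7_48. Their log2 changes were 5.20 ± 0.19 (limma adjusted p = 2.16e-07) and 5.18 ± 0.17 (limma adjusted p = 1.98e-07), the fourth and the fifth highest of 5452 genes. Car3 fell by 1.14 ± 0.17 on the log2 scale (limma adjusted p = 0.000291), 2.22-fold in mean CPM. Mb was at 0.50 ± 0.21 with a 95% interval from 0.01 to 0.98 (limma adjusted p = 0.0566), and without the deeper Pax7_GM library it was called, at 0.74 (limma adjusted p = 0.002).

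In Tw2 cells all 4 members rose, against 35.3% of all genes called higher and 48.9% lower. Pgm5 changed by 7.70 ± 0.19 on the log2 scale (limma adjusted p = 1.45e-08), the third highest of 5452 genes, and Ckm by 7.42 ± 0.17 (limma adjusted p = 1.45e-08), the eighth. In mean CPM these were 339-fold and 201-fold changes, the former resting on 36 reads over both Tw2_GM libraries. Mb rose by 5.06 ± 0.21 (39.3-fold in mean CPM, limma adjusted p = 1.13e-07) and Car3 by 1.53 ± 0.17 (2.93-fold, limma adjusted p = 3.87e-05). This comparison and that of the lineages in growth medium both use the Tw2_GM libraries.

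**Figure D3:**
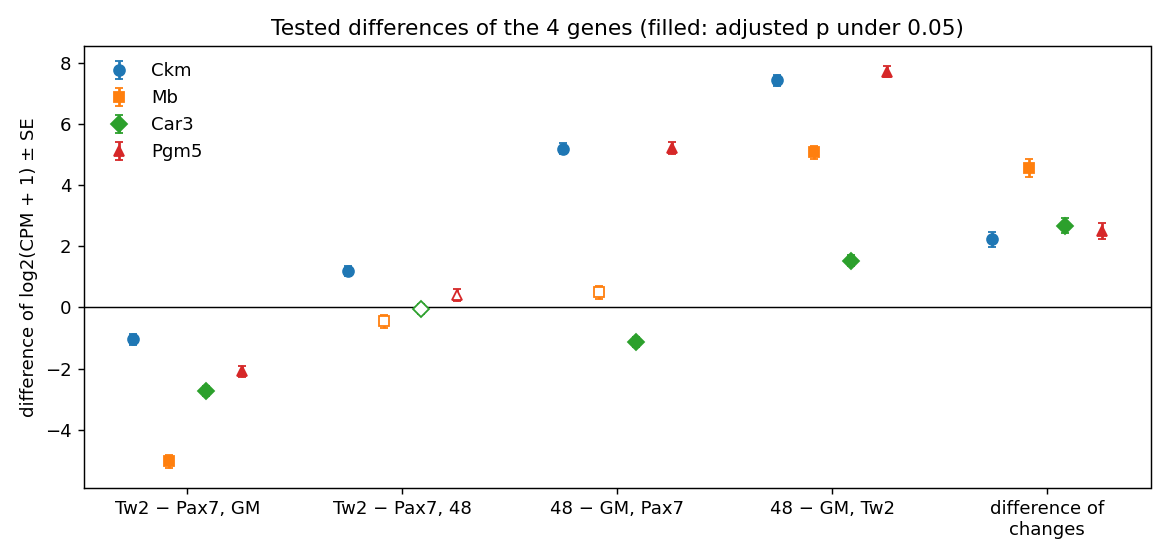
Log2 differences of the 4 genes in the 5 comparisons, as limma estimates on log2(CPM + 1) with standard errors as bars and filled symbols for adjusted p under 0.05. All 4 are below 0 for Tw2 minus Pax7 in GM and above 0 for the difference of changes, where Mb stands highest at 4.57.

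The change between the cultures was larger in Tw2 than in Pax7 cells for every member, where 9.72% of all genes were called in that direction and 9.01% in the other. The difference of the log2 changes was 4.57 ± 0.30 for Mb (limma adjusted p = 0.000142), the highest of all 5452 genes. It was 2.67 ± 0.24 for Car3 (limma adjusted p = 0.000333), 2.50 ± 0.26 for Pgm5 (limma adjusted p = 0.000729) and 2.23 ± 0.25 for Ckm (limma adjusted p = 0.000889). Over the 16 settings run for this comparison Mb ranked first or second, Car3 between 17 and 98, Pgm5 between 43 and 102, and Ckm between 54 and 138. The value of Pgm5 was 1.57 with a pseudocount of 5 CPM. This comparison uses all 4 groups and shares libraries with each of the others.

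The shape behind these differences was not the same for the members. The mean of Mb in Pax7_GM was 71.5% of that in Pax7_48, whereas in Tw2_GM it was 2.54% of that in Tw2_48. For Car3 the corresponding shares were 222% and 34.1%. Ckm was at 2.53% and 0.498%, and Pgm5 at 2.47% and 0.295%. Ckm and Pgm5 were therefore low in growth medium in both lineages, and Mb and Car3 were not low in Pax7_GM.

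**Figure D4:**
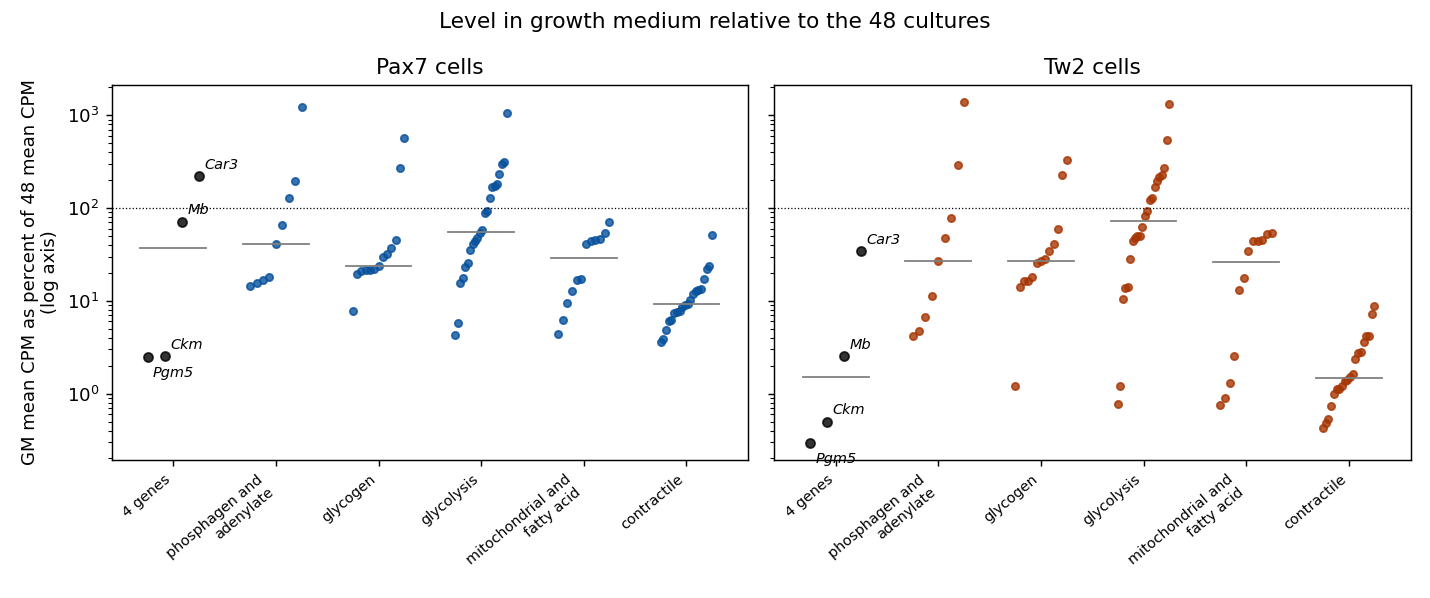
Mean CPM in growth medium as a percent of the mean in the 48 cultures (log axis) for the 4 genes and for the genes of 5 lists, in Pax7 and in Tw2 cells, with grey bars at the medians and a dotted line at 100%. In Pax7 cells Mb (71.5%) lies above all 20 contractile genes, which reach 51.5%, and Ckm and Pgm5 lie below all of them. In Tw2 cells Mb and Ckm lie within the range of the contractile genes.

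The balance of the members within a library shifted accordingly. Ckm reads per Mb read were 0.0581 and 0.0723 in Pax7_GM, 0.919 and 1.35 in Tw2_GM, 1.39 and 2.31 in Pax7_48, and 5.41 and 5.81 in Tw2_48. The ratio was higher in Tw2 than in Pax7 cells in each culture. The Tw2_GM values rest on few reads (68 and 65 of Ckm, 74 and 48 of Mb). The 1.35 there is close to the 1.39 of Pax7_48. Ckm reads per Pgm5 read were 1.30 and 1.38 in Pax7_GM, 1.09 and 1.52 in Pax7_48, 2.14 and 2.29 in Tw2_48, and 2.83 and 5.42 in Tw2_GM, the last from few reads. This ratio was lower in every Pax7 library than in every Tw2 library. Such ratios were not computed for genes outside the members. Together the 4 genes were at 479 to 495 CPM in Pax7_GM, 46.5 to 57.3 CPM in Tw2_GM, 1235 to 1346 CPM in Pax7_48 and 1964 to 1982 CPM in Tw2_48.

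Levels of different genes can be set side by side only per length, here as CPM per kilobase of the longest coding transcript. In Pax7_GM, Mb was at 181 and Car3 at 158 CPM per kilobase as group means, against 4.65 for Ckm and 2.95 for Pgm5. In Tw2_GM, Car3 led with 23.5, and Mb (4.68), Ckm (2.07) and Pgm5 (0.468) followed. In Tw2_48 the order on this scale was Ckm (415), Mb (184), Pgm5 (159) and Car3 (69.0). The choice of transcript sets these values, as the transcripts of Ckm and Mb differ in length, so close neighbours in these orders are not ranked.

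The neighbours in each gene's own order of groups can be compared directly. For Ckm all 3 neighbouring steps were called. For Pgm5 the step from Tw2_48 to Pax7_48 was not called, and for Car3 that from Pax7_48 to Tw2_48 was not. For Mb neither Pax7_48 against Tw2_48 nor Tw2_48 against Pax7_GM was called, the latter at a log2 difference of 0.05 ± 0.21 (95% interval −0.44 to 0.53, limma adjusted p = 0.84), where 85.2% of all genes were called. That last value was −0.45 with quantile normalization (limma adjusted p = 0.0488) and 0.51 with the trend removed (limma adjusted p = 0.0249).

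Other genes of the table with profiles most like those of the members were found by the root mean square difference of log2(CPM + 1) over the 8 libraries, each gene centred on its own mean. For Pgm5 they were the fatty acid desaturase Scd1 (0.26), Prkag3 (0.29), a muscle subunit of the energy sensor AMPK, and Tm6sf1 (0.31), with Pearson's r over the 8 libraries of 0.997, 0.998 and 0.998. Ckm itself was 0.50 from Pgm5. Nearest to Ckm were Ctrb1 (0.33), a chymotrypsinogen, and the extracellular matrix genes Mfap4 (0.35) and Adamtsl2 (0.42), with r of 0.996, 0.996 and 0.998.

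Mb had no such close neighbour. Its nearest genes were Igfn1 (0.57), Tcap (0.68), a titin-binding protein of the Z-disc, and Camk2b (0.74), a subunit of a calcium-dependent kinase, with r of 0.979, 0.954 and 0.967, and no gene was within 0.5. Nearest to Car3 was Inha (0.30), the alpha subunit of inhibin, whose CPM were 47.3 and 39.0 in Pax7_GM, 13.7 and 12.7 in Pax7_48, 10.1 and 12.6 in Tw2_48, and 4.35 and 4.16 in Tw2_GM. It was followed by the phosphatidate phosphatase Lpin1 (0.48) and the actin-binding profilin Pfn2 (0.51), and r for the 3 was 0.965, 0.879 and 0.892.

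Pearson's r of log2(CPM + 1) over the 8 libraries was 0.99 between Ckm and Pgm5, 0.84 between Mb and Car3, 0.68 between Ckm and Mb, and 0.21 between Ckm and Car3. These describe 8 libraries in 4 groups and carry no test. A value over 0.95 with Ckm was held by 706 genes, with Mb by 30 and with Car3 by 1.

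Genes around Ckm in phosphocreatine and adenine nucleotide handling mostly rose with it. Of 10 measured, Ckm included, 7 rose and 3 fell in Pax7 cells (38.8% and 40.5% of all genes). In Tw2 cells 8 rose and 2 fell (35.3% and 48.9% of all genes). The median log2 changes were 1.88 and 2.46, beside 0.01 and −0.49 for all genes. Ckb, the brain form of creatine kinase, had CPM of 94.3 and 75.6 in Pax7_GM, 485 and 447 in Pax7_48, 33.9 and 43.6 in Tw2_GM, and 908 and 969 in Tw2_48. Its order of groups was that of Ckm, and its difference of changes was 2.12 ± 0.24 (limma adjusted p = 0.000968). Adssl1, the muscle adenylosuccinate synthase, rose by 2.75 ± 0.13 in Pax7 and 4.25 ± 0.13 in Tw2 cells. Its relative Adss fell by 3.41 and 3.70 on the log2 scale. In growth medium 6 of the 10 were lower in Tw2 cells and 4 higher (26% and 48.7% of all genes). Their median was −0.78, beside 0.34 for all genes. With the trend removed 3 were lower and 3 higher, beside 767 and 3471 of 5431 genes (medians 0.14 and 0.53). With size factors 8 were lower and 0 higher, beside 2940 and 1393 of 5452 genes (medians −1.60 and −0.50). With quantile normalization 6 were lower and 1 higher, beside 2208 and 1973 of 5452 genes (medians −1.19 and −0.14). Ckb in growth medium was at −1.12 ± 0.17 and, with the trend removed, at 0.03.

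Among 5 carbonic anhydrase and bicarbonate transport genes, Car3 included, 3 rose and 2 fell in Pax7 cells (38.8% and 40.5% of all genes), and 3 rose and 1 fell in Tw2 cells (35.3% and 48.9% of all genes). Car5b, a mitochondrial form, rose in both lineages (0.82 ± 0.14 and 1.81 ± 0.14). Car8, which encodes a related protein without catalytic activity, fell, with log2 changes of −4.39 ± 0.15 in Pax7 and −5.57 ± 0.15 in Tw2 cells, from 344 and 377 CPM in Tw2_GM to 7.28 and 5.96 CPM in Tw2_48. In the comparison of the lineages in growth medium, 3 of the 5 were lower in Tw2 cells and 2 higher (26% and 48.7% of all genes).

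In the list of phosphoglucomutases and glycogen enzymes 12 of 14 genes rose in each lineage (38.8% of all genes in Pax7 and 35.3% in Tw2 cells). The other 2 fell (40.5% and 48.9% of all genes), and the medians of the list were 2.10 and 1.92. The counts of the list were the same with size factors, quantile normalization and the trend removed. After Pgm5 the largest change was that of Pygm, the muscle glycogen phosphorylase, from 149 and 117 CPM in Pax7_GM to 1593 and 1824 CPM in Pax7_48, and from 19.1 and 14.7 CPM in Tw2_GM to 1388 and 1434 CPM in Tw2_48. Its difference of changes was 2.63 ± 0.25 (limma adjusted p = 0.000457). The phosphoglucomutases Pgm1 and Pgm2 moved in opposite directions. Pgm1 fell by 2.41 in Pax7 and 1.14 in Tw2 cells on the log2 scale. Pgm2 rose by 1.76 in Pax7 and 1.87 in Tw2 cells. Which of them is the main form in muscle was not examined.

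Glycolysis and lactate genes were mixed, with 12 rising and 7 falling of 22 in Pax7 cells (38.8% and 40.5% of all genes). In Tw2 cells 11 rose and 7 fell (35.3% and 48.9% of all genes). Pgam2, the muscle phosphoglycerate mutase, changed by 4.10 ± 0.17 and 6.70 ± 0.17, and Slc2a4, the insulin-responsive glucose transporter, by 4.32 ± 0.16 and 5.44 ± 0.16. In growth medium 8 of the 22 were lower in Tw2 cells and 6 higher (26% and 48.7% of all genes). With the trend removed 5 were lower and 14 higher, beside 767 and 3471 of 5431 genes. With size factors 17 were lower and 3 higher, beside 2940 and 1393 of 5452 genes. With quantile normalization 14 were lower and 4 higher, beside 2208 and 1973 of 5452 genes. The difference of changes was called higher in 2 and lower in 3 (9.72% and 9.01% of all genes). With size factors 4 were higher and 0 lower, beside 656 and 223 of 5452 genes. With quantile normalization 4 were higher and 0 lower, beside 690 and 459. With the trend removed 1 was higher and 7 lower, beside 621 and 1217 of 5431 genes.

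Of 29 genes listed as muscle forms of mitochondrial and fatty acid proteins, 12 were measured. All 12 rose in both lineages, where 38.8% of all genes rose in Pax7 and 35.3% in Tw2 cells. The medians of the 12 were 1.80 and 1.98 (with quantile normalization 11 of them were called in Pax7 cells). Cox6a2 and Cox8b, muscle forms of cytochrome c oxidase subunits, changed by 3.35 ± 0.18 and 4.40 ± 0.24 in Pax7 cells and by 5.51 ± 0.18 and 5.87 ± 0.24 in Tw2 cells. The difference of changes was called higher for 3 of the 12 (9.72% of all genes). They were Cox6a2 (2.16 ± 0.26), Cox8b (1.48 ± 0.34) and Fabp3, the muscle fatty acid-binding protein (0.82, but −0.20 with quantile normalization).

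Of 28 genes of the dystrophin complex, the costamere and filamin, partners of Pgm5 at the membrane, 22 rose in each lineage (38.8% of all genes in Pax7 and 35.3% in Tw2 cells). Another 5 fell in Pax7 and 6 in Tw2 cells (40.5% and 48.9% of all genes). The increases in Tw2 cells were led by Itgb1bp2, the integrin-binding melusin (6.49 ± 0.15), caveolin 3, Cav3 (5.56 ± 0.18), and the Z-disc protein Ldb3 (5.41 ± 0.16). Flna, the non-muscle filamin, fell by 3.50 and 4.01 on the log2 scale. The difference of changes was called higher for 7 and lower for 2 (9.72% and 9.01% of all genes). The median over the 28 was −0.06, and between 0.05 and 0.29 under the other scalings, beside 2.50 for Pgm5.

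Among 18 regulators of muscle metabolic genes, 10 rose in each lineage (38.8% of all genes in Pax7 and 35.3% in Tw2 cells), while 4 fell in Pax7 and 6 in Tw2 cells (40.5% and 48.9% of all genes). The median log2 changes were 0.92 and 0.84, beside 0.01 and −0.49 for all genes. Myog had CPM of 439 and 351 in Pax7_GM, 2491 and 2247 in Pax7_48, 109.6 and 89.1 in Tw2_GM, and 3697 and 3859 in Tw2_48, the order of groups seen for Ckm. Its difference of changes was 2.65 ± 0.23 (limma adjusted p = 0.000325), and that of Mef2c, a partner of the myogenic factors, was 1.65 ± 0.35 (limma adjusted p = 0.0158). Prkag3 rose by 4.97 ± 0.16 in Pax7 cells, and its difference of changes was 2.03 ± 0.22.

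Contractile genes moved in the directions of Ckm and Pgm5 in both lineages, and in Pax7 cells not in that of Car3, which fell. Of 20 measured, 18 were lower in Tw2_GM than in Pax7_GM and none higher (17 to 19 and none under the other scalings), all 20 rose in both lineages, and the difference of changes was called higher for 18, with a median of 2.48. The shares of all genes were 26% lower in Tw2_GM, 38.8% and 35.3% rising in Pax7 and Tw2 cells, and 9.72% with a higher difference of changes. Lower in Tw2_GM were 2940 of 5452 genes with size factors, 2208 with quantile normalization and 767 of 5431 with the trend removed. The summed level of the 20 was 3384 to 3839 CPM in Pax7_GM, 623 to 755 CPM in Tw2_GM, 41953 to 44098 CPM in Pax7_48 and 37996 to 38139 CPM in Tw2_48, with none at 0 reads in both libraries of a group. These sums leave out Myh3, Actc1, Mylpf and Acta1, whose libraries could not be recovered. In that order their deposited means were 8729, 12605, 11082 and 11091 CPM in Pax7_48. They were 20577, 20911, 9452 and 12723 CPM in Tw2_48, so the sums do not rank the lineages at 48. The part of the contractile genes in the differences of the members was not tested. In growth medium the level of these 20 was between 3.63 and 51.5% of that at 48 in Pax7 cells (median 9.19%), below the 71.5% of Mb and above the shares of Ckm and Pgm5. In Tw2 cells it was between 0.430 and 8.74% (median 1.46%). That range held Mb (2.54%) and Ckm (0.498%), with Pgm5 (0.295%) below it and Car3 (34.1%) above.

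Markers of other cell types that can hold Car3 or Mb were few in the table. Of 15 adipocyte markers 3 were measured (Scd1, Dgat2 and Pnpla2), and their summed level was 75.0 to 84.7 CPM in Pax7_GM, 45.3 to 53.4 CPM in Tw2_GM, 604 to 637 CPM in Pax7_48 and 607 to 684 CPM in Tw2_48. All 3 were called higher in Pax7_GM (26% of all genes), as Car3 was. With the trend removed 1 was higher and 2 lower in Pax7_GM, beside 767 and 3471 of 5431 genes. The 3 rose at 48 in the Pax7 lineage (38.8% of all genes), where Car3 fell. The 6 fibro-adipogenic progenitor markers summed to 1012 to 1034 CPM in Pax7_GM, 1175 to 1246 CPM in Tw2_GM, 492 to 519 CPM in Pax7_48 and 382 to 395 CPM in Tw2_48. These sums hold genes that differed in opposite directions in growth medium, where 2 were called lower and 3 higher in Tw2 cells (26% and 48.7% of all genes). Col1a2, a chain of type I collagen, was at 424 and 387 CPM in Pax7_GM and at 3.61 and 3.28 CPM in Tw2_GM (log2 difference −6.51 ± 0.44), a larger gap than that of Mb. It remained lower in Tw2 cells at 48 (−4.21 ± 0.44), with 270.2 and 246 CPM in Pax7_48 and 6.84 and 24.1 CPM in Tw2_48. Prrx1, a mesenchymal transcription factor, was also lower in Tw2_GM (−3.01 ± 0.25), while Tcf4 (1.62 ± 0.29), Fbn1 (1.12 ± 0.16) and Col3a1 (1.04 ± 0.12) were higher. Of the immune markers Itgam, an integrin of myeloid cells, alone was measured, and no endothelial or erythroid marker of the lists was. Itgam had 4 and 3 reads in Pax7_GM and 0 reads in both Tw2_GM libraries, and it stood at 15.9 and 11.9 CPM in Pax7_48 and at 22.8 and 18.1 CPM in Tw2_48. It was called lower in Tw2_GM and higher in Tw2_48 than in the Pax7 group, higher at 48 in both lineages, and its difference of changes was called, at 1.17 ± 0.24 (limma adjusted p = 0.0138). With size factors and quantile normalization Itgam at 48 was at −0.09 and 0.12, Tw2 minus Pax7, and not called. Its difference of changes was then 0.63 and 0.37, also not called. In growth medium its call was lost with quantile normalization. The part of such cells in the levels of the members was not tested.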

How the data were processed

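The data are RNA-seq of 8 mouse libraries in 4 groups, grouped by their titles. TopHat2 2.0.0, DESeq2 1.6.3 and the builds GRCm38 and mm10 are listed, without a role, per the submitters' processing notes, and the counting tool and annotation are not given in the sources used here. The authors deposited 1 table with a mean CPM for every group, and with log2 fold changes of the other 3 groups over Tw2_GM, which equal log2 of (group mean + 1) over (Tw2_GM mean + 1) to within 1.41e-11. Every listed gene reaches an absolute deposited log2 fold change of 1, and every recovered gene 10 CPM in at least 4 libraries. The authors' status column holds 1 throughout and was not used.

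Each mean was taken apart into the whole reads of its 2 libraries, from the CPM steps of low genes, to within 1.2 times the rounding error. Acta1, Actc1, H19, Myh3 and Mylpf gave no single solution and were left out. Group means in the text are the deposited means. limma 3.58.1 (R 4.3.3) was run on log2(CPM + 1), pseudocount 1, with 1 mean per group over 8 libraries (4 residual degrees of freedom, eBayes without trend) and no filter. Recovery and fit were checked on simulated data. GC content and length came from GENCODE M21 for 5431 genes.

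The members and lists were chosen with earlier results of these data known. Only listed genes with recovered libraries count as measured. They were 10 of 19 around Ckm, 5 of 21 around Car3, 14 of 25 for glycogen and 22 of 37 for glycolysis. For the dystrophin complex they were 28 of 37, for the regulators 18 of 35 and for the contractile genes 20 of 30. Named besides the members are up to 3 called genes with the largest change per list, direction and comparison, and the 3 nearest profiles of each member, without predicted gene models. Pgm2 is named beyond this rule, as are the contractile genes left out of the fit. The alternatives were size factors, quantile normalization, pseudocounts of 0.1 and 5 CPM, a mean of at least 10 CPM, removal of the GC and length trend, eBayes with trend, only the groups compared, and each library left out.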

Additional observations from a re-analysis of the deposited data

Results flagged for a closer look

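For all 4 genes the change from growth medium to the 48 cultures differed between the lineages by the test of that difference itself (limma on log2(CPM + 1), Tw2 minus Pax7). The difference was 4.57 for Mb, 2.67 for Car3, 2.50 for Pgm5 and 2.23 for Ckm. Car3 is the member whose change had opposite signs in the lineages, and Mb is the one whose Tw2_48 libraries lay within the range of Pax7_GM. Groups of 2 libraries are too small for a check of single libraries that stand apart.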

How the results depend on the processing

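No paired analysis was possible because the deposited group means carry no replicate numbers, so the recovered libraries cannot be matched across groups. Of the comparisons of the members, those between cultures in Tw2 cells, the differences of changes, and the differences in growth medium of Mb, Car3 and Pgm5 kept direction and call under every alternative run. So did the rises of Ckm and Pgm5 and the fall of Car3 in Pax7 cells, and the higher Ckm in Tw2_48. With the GC and length trend removed, Ckm in growth medium was at −0.20 and no longer called. At 48, Tw2 minus Pax7, Mb was called at −1.11 under size factors, −0.58 under quantile normalization and −0.45 in a fit of only the groups compared, and was at 0.37, not called, without the trend. Car3 was at −0.70 (called) with size factors and 0.069 with the trend removed. Pgm5 was at −0.25 with size factors, and called at 0.41 with a pseudocount of 5 CPM, 0.77 with the trend removed and 0.41 with only the groups compared. For 48 minus GM in Pax7 cells, Mb was called at 0.75 with size factors, 0.49 with a pseudocount of 5 CPM and 0.50 with a trended eBayes. Mb in Tw2_48 minus Pax7_GM moved to −0.36 under size factors, to −0.45 under quantile normalization and to 0.51 without the trend, the last 2 called in opposite directions. The cause of these shifts was not tested.

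Leaving out 1 library at a time gave, at 48, −0.57 to −0.33 for Mb, −0.17 to 0.077 for Car3 (above 0 without the deeper Pax7_48 library) and 0.36 to 0.46 for Pgm5. It gave 0.25 to 0.74 for Mb in Pax7 cells and −0.20 to 0.29 for Mb in Tw2_48 minus Pax7_GM, below 0 without the shallower Pax7_GM or the shallower Tw2_48 library. A group left with 1 library was assumed to vary like the others. The count of genes called at 48 was 3568 and ran from 2152 to 4218, lowest without the deeper Tw2_48 (2152) and the shallower Pax7_48 library (2261). The count for the difference of changes was 1021, 1838 with the trend removed, and ran from 449 to 3153. It was 3153 without the shallower and 1728 without the deeper Pax7_GM library, and 449 to 510 without any 1 of the other libraries. Size factors and quantile normalization moved the share of calls that were higher in Tw2_GM from 65.2% to 32.1% and 47.2%, and the trend removal to 81.9%. At 48 these shares were 66.2%, 26.4%, 48.4% and 79.3%, and for the difference of changes 51.9%, 74.6%, 60.1% and 33.8%. The fit of only the groups compared was not run for the difference of changes, which uses all groups. Depth limits Pgm5 in Tw2_GM most, with 12 reads in 1 library.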
